A study of Rattus norvegicus with 18 samples.

Results

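The question here was whether a high-fat diet eaten by a female rat went with a different change of her muscle transcriptome when her grandfather had also eaten one. All 18 of the 18 arrays of the series entered, in 4 groups taken from the source names. The measure was an interaction: the difference between own high-fat diet and own chow among granddaughters of high-fat-fed males, minus the same difference among granddaughters of chow-fed males. A value above 0 means that the own-diet difference was more positive in the high-fat lineage. All animals were adult Sprague-Dawley females of the F2 generation, whose age is not given in the sources used here, and the tissue was the extensor digitorum longus (EDL), a fast muscle of the lower leg. Groups are written as the diet of the F0 founder and then the diet of the female: chow/chow (5 animals), chow/high-fat (5), high-fat/chow (4 animals) and, with both exposures, high-fat/high-fat (4). The females ate chow or a diet with 42/45% of energy from fat for 12 weeks, and each array held the RNA of 1 animal. The labels do not give the number of founders or the kinship of the females. Relatives within a lineage could make p-values too small. Where relatives were split between the own diets, p-values of the own-diet differences and of the interaction could instead be too large.

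Skeletal muscle is a mosaic of slow fibres, which are rich in mitochondria and use the slow myosin of Myh7, and fast fibres, which use other myosins and rely more on glycolysis. Fat in the diet raises the supply of fatty acids, which act through PPAR receptors on genes that carry fatty acids into mitochondria and burn them. Experiments with fed founders and their untreated descendants ask whether a paternal diet can reach later generations through the germ line, and a second exposure in the descendants asks whether the response to diet itself was altered.

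Of a 12-gene check list 7 genes were measured, at mean log2 levels of 12.33 to 13.19: Acta1, Ckm, Mb, Des and Ttn, which skeletal muscles share, and Actn3 and Pvalb, which mark fast fibres. They show fast skeletal muscle and do not tell the EDL from other fast muscles. The fast myosins Myh4 and Myh1 were not tested, because their probe sets also name Myh2. Per array the median deposited intensity was 67.8 ± 1.74 in chow/chow (SD, n = 5), 61.3 ± 5.12 in chow/high-fat (SD, n = 5), 65.8 ± 5.35 in high-fat/chow (SD, n = 4) and 70.9 ± 3.44 in high-fat/high-fat (SD, n = 4). It was thus lower on own high-fat diet in the chow lineage and higher in the high-fat lineage. On the log2 scale these differences were -0.15 and 0.11, and their interaction was 0.26 (exact permutation test of the own-diet labels within each lineage, two-sided p = 0.00952, 17640 relabellings). The null of that test is no own-diet difference in either lineage, so its p does not single out the interaction. The brightness of the arrays therefore moved with the contrast studied here, and its part in the results was not tested beyond the alternative settings given with them. All values that follow are log2(intensity + 16) after quantile normalization of the arrays, which gives every array the same distribution.

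**Figure D1:**
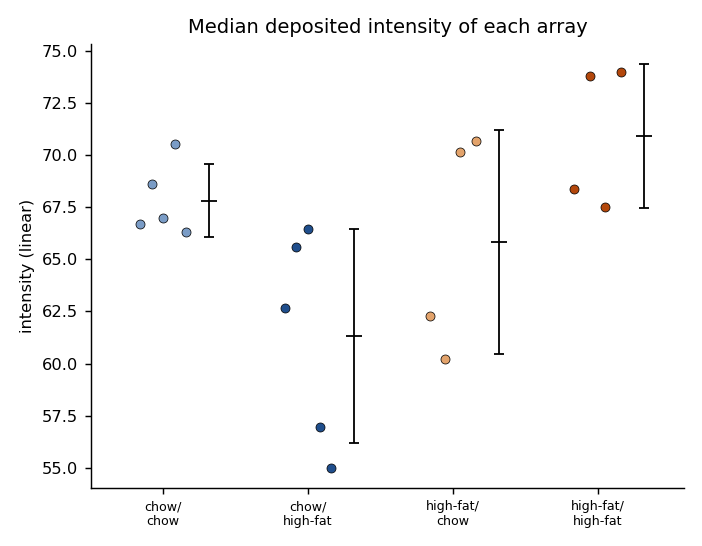
Median deposited intensity (linear scale) of each of the 18 arrays by group, written as grandfather's diet/own diet; points are animals, and the bar beside them is the mean with its SD. The chow/high-fat group has the lowest mean, 61.3, and the high-fat/high-fat group the highest, 70.9.

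No gene passed the interaction test. Of 12642 genes tested with limma, 0 (0%) had a Benjamini-Hochberg adjusted p under 0.05, and the smallest adjusted p was 0.546, shared by 36 genes. At an unadjusted p under 0.05 there were 863 genes (6.83%), 451 (3.57%) with a positive and 412 (3.26%) with a negative interaction, where 632.1 would be expected if no gene differed. Over all genes the interaction had a median of 0.0042 and quartiles of -0.096 and 0.10. Its standard error had a median of 0.128, and 90% of genes lay between 0.0895 and 0.229, so that a missing call does not show equal responses. The own-diet differences themselves gave 0 called genes in the chow lineage (607 at an unadjusted p under 0.05) and 0 in the high-fat lineage (1170). The grandpaternal diet gave 1 called gene at own chow (0.00791%), Slc17a5, and 0 at own high-fat diet (1682 at an unadjusted p under 0.05), all with limma. The count at own chow was 0 when any of 13 of the 18 animals was left out. At own high-fat diet it was 56 without high-fat/high-fat animal 1, 54 without high-fat/chow animal 1 and 1689 on the table as deposited.

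**Figure D2:**
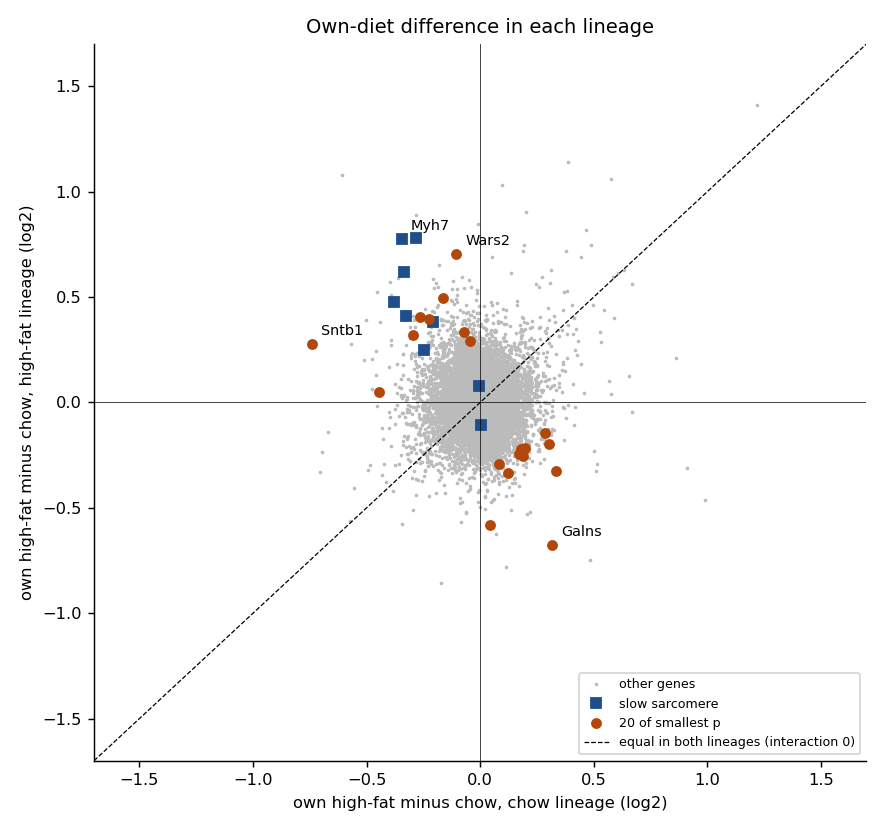
Each point is 1 of 12642 genes: the difference of own high-fat diet minus own chow (log2) in the chow lineage on the x axis and in the high-fat lineage on the y axis. Genes on the dashed line have an interaction of 0. The 20 genes of smallest interaction p lie in the upper left and lower right quadrants, as do 9 of 9 slow sarcomere genes, of which Myh7b and Mybpc1 lie near the centre.

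In 6587 of all genes (52.1%) the own-diet difference had opposite signs in the 2 lineages. Among the 863 genes at an unadjusted p under 0.05 this was so for 818 (94.8%), which the choice of these genes largely fixes. The own-diet difference was the larger one in the high-fat lineage for 663 of the 863. For comparison, 7464 of all 12642 genes had the larger difference in that lineage, which has fewer animals. Own-diet groups did not overlap in 96 genes (0.759%) in the chow lineage and in 521 (4.12%) in the high-fat lineage. Smaller groups, as in the high-fat lineage, fall apart by chance more often, so these 2 shares do not compare the lineages. How many would do so in both by chance was not tested. It was so in both for 6 genes (0.0475%), named here after their values were seen. In 5 of them the own-diet difference was positive in both lineages and close in size. These were Crat (0.16 and 0.23 in the chow and high-fat lineages), Pxmp4 (0.28 and 0.34), Decr1 (0.58 and 0.59), Cpt1b (0.19 and 0.20) and Rai2 (0.24 and 0.19). Crat, Decr1 and Cpt1b serve the handling of fatty acids in mitochondria. The sixth was Slc13a1, which had the smallest interaction p of all genes and opposite signs.

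Slc13a1 (probe set 10861309) encodes a sodium-sulfate cotransporter best known from kidney. Its log2 level was 5.72, 5.72, 5.75, 5.80 and 5.62 in chow/chow and 5.90, 5.84, 5.92, 5.97 and 5.98 in chow/high-fat. It was 5.81, 5.73, 5.72 and 5.70 in high-fat/chow and 5.35, 5.60, 5.54 and 5.61 in high-fat/high-fat. Every female on high-fat diet was above every chow-fed female in the chow lineage and below every one in the high-fat lineage. On own high-fat diet the lineages did not overlap either, which held for 4.71% of all genes. The interaction was -0.41 (SE 0.0882, 95% confidence interval -0.60 to -0.23, limma adjusted p = 0.546). All values lay close to 5.28, the mean level below which genes were not tested.

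Dpp3 (10727701), a cytosolic peptidase that cleaves short peptides, came next. Its log2 level was 7.46, 7.34, 7.40, 7.56 and 7.62 in chow/chow, 7.60, 7.16, 7.28, 7.26 and 7.25 in chow/high-fat, 7.31, 7.35, 7.38 and 7.28 in high-fat/chow and 7.58, 7.65, 8.10 and 7.97 in high-fat/high-fat. The 4 high-fat/high-fat animals stood above all high-fat/chow animals, while the chow-lineage groups overlapped through chow/high-fat animal 1. The interaction was 0.66 (SE 0.145, limma adjusted p = 0.546).

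Sntb1 (10903816) encodes beta-1-syntrophin, an adaptor of the dystrophin complex at the fibre membrane. Its log2 level was 10.24, 10.37, 10.10, 10.27 and 9.97 in chow/chow and 9.66, 9.21, 9.20, 9.68 and 9.52 in chow/high-fat. In the high-fat lineage it was 10.33, 9.64, 9.78 and 9.93 on chow and 9.78, 10.12, 10.66 and 10.23 on high-fat diet. All chow/high-fat animals lay below all chow/chow animals, and the high-fat lineage groups overlapped. The own-diet difference was -0.74 in the chow lineage and 0.28 in the high-fat lineage, an interaction of 1.02 (SE 0.225, 95% confidence interval 0.55 to 1.49, limma adjusted p = 0.546). Without normalization between arrays the interaction of Sntb1 was 1.31 and its limma adjusted p 0.0364, while the median of all genes stood at 0.24, which leaves 1.07 above that median. The other 10 measured genes of the dystrophin complex list had interactions between -0.13 and 0.26.

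Dgkz (10847438), a diacylglycerol kinase that ends diacylglycerol signals, had log2 levels of 8.34, 8.52, 8.83, 8.61 and 8.52 in chow/chow and 8.62, 8.93, 9.05, 8.78 and 9.10 in chow/high-fat. They were 8.91, 8.90, 8.64 and 8.98 in high-fat/chow and 8.65, 8.39, 8.61 and 8.48 in high-fat/high-fat. The groups overlapped in the chow lineage and, by 1 animal, in the high-fat lineage. The interaction was -0.66 (SE 0.150, limma adjusted p = 0.546), but 2 dimmer probe sets of the gene gave -0.023 and 0.26, so the probe sets disagree.

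C8h3orf62 (10793129), a little-described open reading frame, had log2 levels of 5.50, 5.69, 5.67, 5.59 and 5.61 in chow/chow, 5.68, 5.84, 5.85, 6.05 and 6.14 in chow/high-fat, 5.76, 5.90, 5.79 and 5.81 in high-fat/chow and 5.66, 5.72, 5.48 and 5.63 in high-fat/high-fat. The high-fat/high-fat animals lay below the high-fat/chow animals, and the chow-lineage groups overlapped by 1 animal. The interaction was -0.50 (SE 0.117, limma adjusted p = 0.546).

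Znfx1 (10851925), a zinc finger helicase with a role in antiviral sensing, had the narrowest spread of the 6. Its log2 level was 7.76, 7.78, 7.69, 7.82 and 7.72 in chow/chow, 7.78, 7.70, 7.78, 7.68 and 7.59 in chow/high-fat, 7.47, 7.52, 7.50 and 7.55 in high-fat/chow and 7.71, 7.83, 7.86 and 7.80 in high-fat/high-fat. The high-fat/chow animals were the 4 lowest of all 18, and the other groups overlapped. The interaction was 0.34 (SE 0.0807, limma adjusted p = 0.546).

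**Figure D3:**
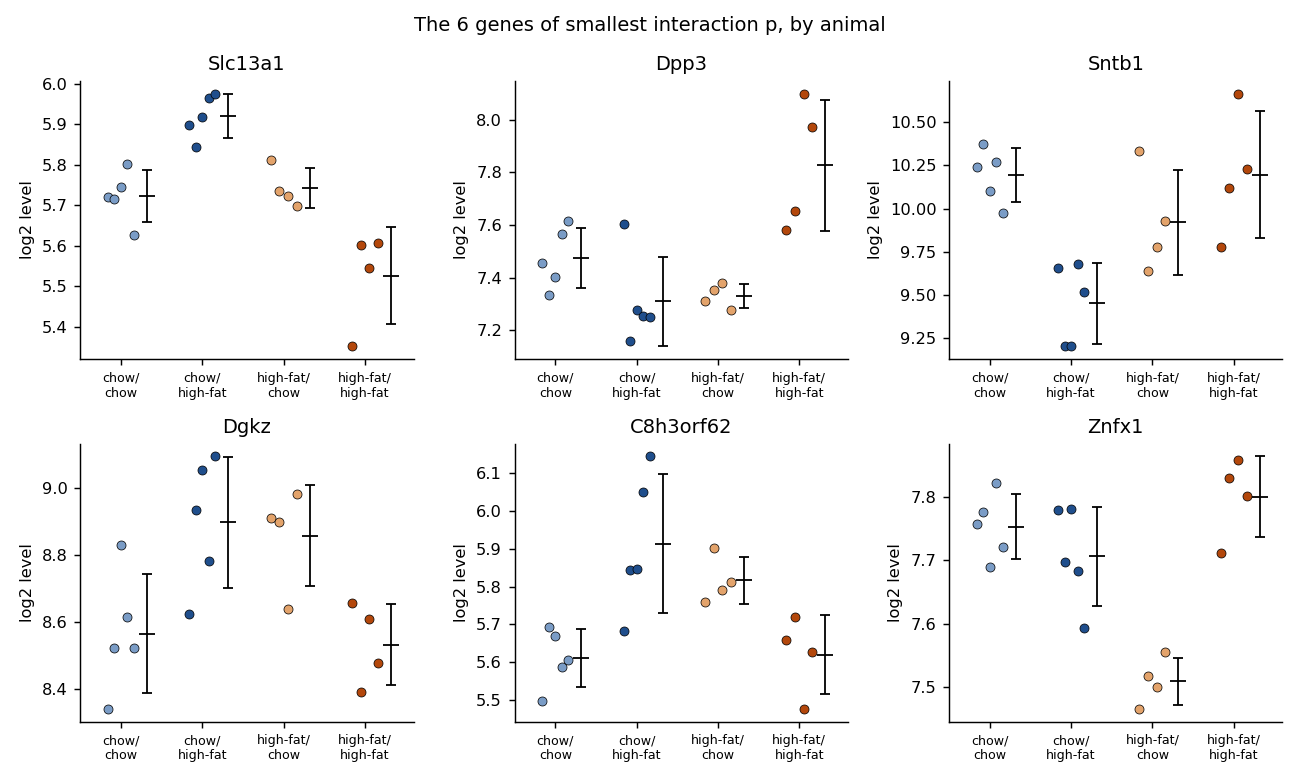
Log2 level of the 6 genes of smallest interaction p in each animal, by group (grandfather's diet/own diet), with the mean and SD beside the points. In Slc13a1 the own-diet groups separate in opposite directions in the 2 lineages; in Sntb1 the chow-lineage groups separate, and in Znfx1 the high-fat lineage groups.

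The other 14 of the 20 genes of smallest p had interactions between -0.99 and 0.81, and the limma adjusted p of each was 0.546. Galns, a lysosomal sulfatase, had the most negative value, -0.99 (SE 0.244), with own-diet differences of 0.32 in the chow lineage and -0.68 in the high-fat lineage. Wars2, the mitochondrial tryptophanyl-tRNA synthetase, had the most positive, 0.81 (SE 0.213), from -0.10 and 0.71. Slc17a5, the lysosomal sialic acid exporter called above for the grandpaternal diet at own chow, had 0.62 (SE 0.151): its means were 8.04 in chow/chow, 7.82 in chow/high-fat, 7.36 in high-fat/chow and 7.75 in high-fat/high-fat. Its high-fat/chow animals did not overlap with chow/chow (3.28% of all genes), and its other groups did overlap where they were compared. Smo, the signal transducer of the Hedgehog pathway, had 0.49, almost all of it from the chow lineage (-0.44 against 0.05). Pak1, a kinase of the actin skeleton, had -0.63, almost all from the high-fat lineage (0.04 against -0.58). The rest were Znf688 (0.67), Pcdhb2 (0.61), Hspbp1 (0.41), Exo5 (-0.46), Phf8l (-0.44), Or7a38c (-0.43), Tmem68 (-0.41), Wdr12 (-0.40) and Rnf121 (-0.37). Own-diet groups did not overlap in the high-fat lineage for 13 of the 20 (4.12% of all genes) and in the chow lineage for 4 (0.759% of all genes), counts that the choice by p favours.

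Of 47 gene lists, the slow-fibre sarcomere genes had the median interaction farthest from that of all genes. They are the myosins, troponins and tropomyosin of slow fibres and a myosin-binding protein with slow in its name, and 9 of 10 were measured. Their interaction was positive in 8 of 9, with a median of 0.74 beside 0.0042 over all genes (51.1% positive and 48.9% negative). However, 0 of 9 passed the limma test and 0 of 9 had an unadjusted p under 0.05. These genes were also among the most variable between animals of 1 group: their median within-group SD was 0.693, beside 0.136 over all genes. The median own-diet difference was -0.28 in the chow lineage and 0.41 in the high-fat lineage. In whole muscle, fewer slow fibres and less slow-fibre RNA per fibre cannot be told apart.

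Myh7 (10783715), the slow myosin heavy chain, had log2 levels of 11.62, 10.99, 11.64, 10.90 and 11.06 in chow/chow and 11.77, 9.84, 11.26, 10.91 and 10.70 in chow/high-fat. It had 10.08, 11.15, 8.82 and 10.02 in high-fat/chow and 11.09, 11.32, 11.23 and 9.53 in high-fat/high-fat. The lowest values were those of high-fat/chow animal 3 (8.82) and high-fat/high-fat animal 4 (9.53), the chow lineage spanned 9.84 to 11.77, and all groups overlapped. The interaction was 1.12 (SE 0.595, 95% confidence interval -0.13 to 2.36, limma adjusted p = 0.739). Tnni1, the slow inhibitory troponin, was lowest in the same 2 animals: 8.82, 10.42, 8.51 and 9.13 in high-fat/chow and 10.31, 10.72, 10.30 and 8.68 in high-fat/high-fat, with an interaction of 1.06 (SE 0.596, limma adjusted p = 0.743).

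The other slow sarcomere members had interactions of 0.95 for Tnnt1, 0.86 for Tnnc1, 0.74 for Myl2, 0.59 for Tpm3, 0.50 for Myl3, 0.09 for Myh7b and -0.11 for Mybpc1. A second Tpm3 probe set gave -0.12. Mybpc1, named the slow myosin-binding protein C, was the exception in spread as well, at 12.52 to 12.71 in all 18 animals. In these values it did not behave like the other slow-fibre genes. The list's score, the mean of its members after centring each gene, was -1.14 in high-fat/high-fat animal 4 and 0.25, 0.48 and 0.27 in the other 3. In high-fat/chow it was -0.60, 0.45, -1.04 and -0.57. Without high-fat/high-fat animal 4 the median interaction of the list was 1.17, and without high-fat/chow animal 3 it was 0.487. Each sample title holds a code of a letter and a number (5, 7 or 9), which the labels do not explain. In high-fat/chow animal 2 a further number follows it. The number within the code was treated as a possible batch. Some full codes occur in both lineages, and whether the lineages were processed apart is not given. Within code 7, with 3 chow/high-fat animals and 1 of each other group, the median was 0.073. Within code 5, with 1 high-fat/high-fat animal, 3 chow/chow animals and 2 of each other group, it was 0.566. With the array median entered as a covariate it was 1.37.

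**Figure D4:**
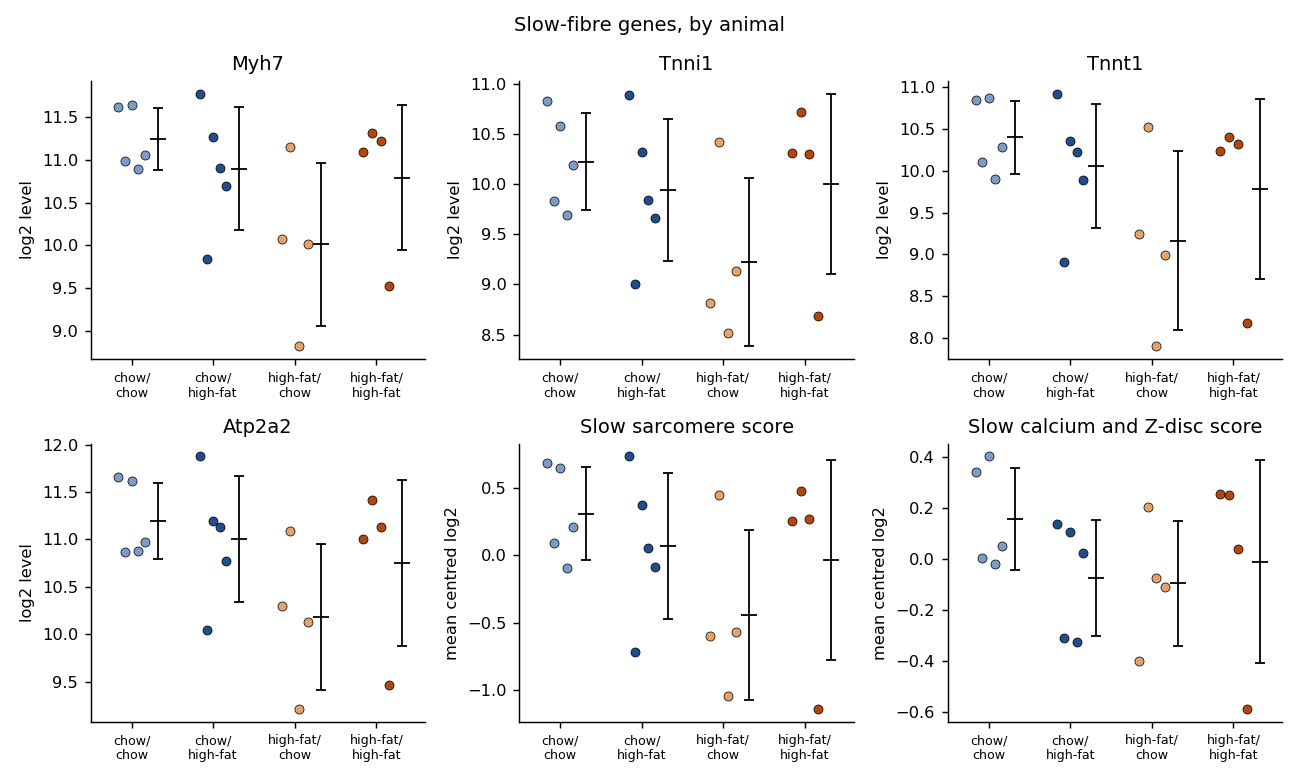
Log2 level of Myh7, Tnni1, Tnnt1 and Atp2a2, and the scores of the slow sarcomere and the slow calcium and Z-disc lists (mean of centred log2 values), in each animal by group (grandfather's diet/own diet), with mean and SD. High-fat/high-fat animal 4, at 9.53 for Myh7, sits below the other 3 of its group, and high-fat/chow animal 2, at 11.15, above the other 3 of its group.

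Because Myh7, Tnni1 and Mybpc1 were the slow sarcomere genes of smallest p, their RefSeq start regions (GRCr8) were looked up. For Myh7 and Mybpc1 the table's start site lies 1657 and 308 bases inside the annotated gene, so these windows are not shown. The 250 bases before the Tnni1 start (chr13:49781279-49781528, plus strand) are given 5′ to 3′ with E-boxes (CANNTG, the site of myogenic basic helix-loop-helix factors) in capitals.
Tnni1: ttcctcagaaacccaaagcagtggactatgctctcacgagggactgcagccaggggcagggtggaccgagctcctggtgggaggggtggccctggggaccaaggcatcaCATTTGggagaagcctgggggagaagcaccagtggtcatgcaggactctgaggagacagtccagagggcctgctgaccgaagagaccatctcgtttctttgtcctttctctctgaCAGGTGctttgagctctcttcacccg
The window holds 2 E-boxes, which begin 141 and 26 bases before the start, and 65.5% of 33469 RefSeq windows of this length hold at least 1. It holds no CATTCC (M-CAT, the site of TEAD factors, either strand; 12.1% of windows), no TATAAA (either strand; 12.9%) and no MEF2 site (3.0%). Matches are descriptions of the letters, and a missing match says nothing of the factor.

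Genes of slow-fibre calcium handling and the Z-disc stood next among the lists. Their interaction was positive in 8 of 10, with a median of 0.34, and 0 of 10 had an unadjusted p under 0.05. Ankrd2, a stretch-responsive protein of slow muscle, had log2 levels of 9.46, 9.27, 9.54, 9.03 and 8.90 in chow/chow and 9.01, 8.89, 9.04, 8.08 and 9.0 in chow/high-fat. It had 8.60, 9.48, 9.24 and 8.06 in high-fat/chow and 10.14, 9.11, 9.25 and 8.41 in high-fat/high-fat. The groups overlapped in both lineages, and the interaction was 0.82 (SE 0.423, limma adjusted p = 0.729). Myoz2, a Z-disc protein that binds calcineurin, had 0.95, and Atp2a2, the slow-fibre calcium pump, had 0.76. Ankrd1, a related stretch-responsive gene, had -0.68. The median of the list was 0.174 without high-fat/chow animal 1 and 0.140 with the title code as a block.

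Fast sarcomere genes had an interaction below 0 in 9 of 11, with a median of -0.035, and 0 of 11 had an unadjusted p under 0.05. Transcriptional regulators of fibre type had a positive interaction in 19 of 20 measured genes (51.1% of all genes), with a median of 0.11. Of them 4 had an unadjusted p under 0.05 (3.57% of all genes in that direction). These were Tead4 (0.42), Tbx15 (0.33), Ppargc1a (0.43) and, outside the naming rule, Nfatc4 (0.25). Tead4, which binds M-CAT sites, had 9.46, 9.20, 9.15, 9.24 and 9.11 in chow/chow, 9.24, 9.09, 8.78, 9.26 and 8.87 in chow/high-fat, 8.95, 9.11, 9.04 and 8.84 in high-fat/chow and 9.16, 8.91, 9.34 and 9.46 in high-fat/high-fat. The groups overlapped in both lineages (limma adjusted p = 0.649). Ppargc1a, the coactivator of mitochondrial and slow-fibre genes, had own-diet differences of -0.19 and 0.24 (limma adjusted p of the interaction 0.695). Its high-fat lineage groups did not overlap (4.12% of all genes), but only just. The highest high-fat/chow value was 9.6255 and the lowest high-fat/high-fat value 9.6301.

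Genes that burn or respond to fatty acids had positive median own-diet differences in both lineages. The median own-diet difference of the fatty acid oxidation list was 0.21 in the chow lineage and 0.28 in the high-fat lineage, and its median interaction was 0.075 (positive in 19 of 24). For the fatty acid responsive list the medians were 0.34 and 0.44, with a median interaction of 0.011 (positive in 11 of 15). These 2 lists share members. Cpt1b, the muscle carnitine palmitoyltransferase that admits fatty acids to mitochondria, had 11.16, 11.12, 11.19, 11.09 and 11.09 in chow/chow and 11.40, 11.33, 11.29, 11.30 and 11.29 in chow/high-fat. It had 11.13, 11.06, 11.15 and 11.17 in high-fat/chow and 11.35, 11.44, 11.33 and 11.21 in high-fat/high-fat. All fat-fed animals stood above all chow-fed animals in each lineage. The interaction of Cpt1b was 0.0090 (95% confidence interval -0.16 to 0.18, limma adjusted p = 0.991), an interval that reaches nearly as far as the own-diet difference in either lineage.

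The other genes of this kind were less precise. Pdk4, which restrains glucose oxidation, had an interaction of 0.19 (95% confidence interval -0.24 to 0.62). Ucp3, a mitochondrial carrier induced by fatty acids, had 0.0087 (-0.70 to 0.72), and Angptl4, a secreted lipase inhibitor, had 0.26 (-0.96 to 1.48). Both of the latter reversed their sign when single animals were left out.

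A few members of the lipid lists had unadjusted p under 0.05, as did 6.83% of all genes. They numbered 1 of 24 for fatty acid oxidation, 2 of 15 for fatty acid responsive and 2 of 16 for peroxisome genes. Lipid droplet genes had 1 of 14 and fatty acid uptake genes 1 of 13. Lipid synthesis (16 genes), sterol synthesis (13) and sphingolipid synthesis (13) had 0. Some of these lists share members. Acot1, an acyl-CoA thioesterase, had own-diet differences of -0.01 and 0.53. Its 4 high-fat/high-fat values (6.22, 6.43, 6.06 and 5.83) lay above the high-fat/chow values (5.68, 5.67, 5.51 and 5.57), groups that did not overlap for 4.12% of all genes. Its interaction was 0.54 (limma adjusted p = 0.649). Plin2, a coat protein of lipid droplets, had 0.68, Etfa, an electron acceptor of fatty acid oxidation, had 0.34, and Cat, the peroxisomal catalase, had 0.33. Fabp4, the fatty acid binding protein of fat cells and capillaries, had -0.44. Each of these had a limma adjusted p of at least 0.649. Plin2 lay between 8.76 and 9.63 in high-fat/chow and between 9.35 and 10.35 in high-fat/high-fat, and these groups overlapped.

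Of the remaining panel, Slc2a4, the insulin-responsive glucose transporter, had an interaction of -0.17 (95% confidence interval -0.45 to 0.12), and Fbxo32, a ubiquitin ligase of muscle atrophy, had 0.16 (-0.15 to 0.46). Scd, which desaturates fatty acids, had 0.18 (-0.60 to 0.97). Adipoq, which marks fat cells, had -0.34 (-1.15 to 0.48), at a mean log2 level of 6.30. The fat cell list had a median of -0.026, positive in 6 of 13, which ran from -0.104 without high-fat/high-fat animal 2 to 0.021 without high-fat/chow animal 4.

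Markers of other tissues and of handling follow. Of the 47 list medians, 22 changed sign when some single animal was left out, and all 47 were above 0 on the table as deposited, where the median of all genes was 0.24. Immediate early genes, which respond within minutes to stimuli such as dissection, had a positive interaction in 21 of 26 and a median of 0.12. Ccn1 led them with 0.98 (SE 0.423, limma adjusted p = 0.695). Its levels were 9.61, 9.32, 8.25, 9.50 and 9.53 in chow/chow, 9.85, 8.85, 8.80, 8.27 and 8.15 in chow/high-fat, 8.0, 8.50, 8.81 and 8.38 in high-fat/chow and 9.25, 8.63, 8.71 and 9.19 in high-fat/high-fat. Ccn1 was high in most chow/chow animals and in chow/high-fat animal 1, and the groups overlapped in both lineages. The score of the immediate early list was 0.57 in chow/high-fat animal 1 and between -0.33 and 0.26 in the other 17, and without that animal the median interaction of the list was 0.190. The part of handling in any result was not tested.

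Red blood cell markers had a negative interaction in 7 of 8, with a median of -0.11, which became 0.064 without chow/high-fat animal 1. Hbb, a haemoglobin chain, had -0.22 and Alas2, the first enzyme of haem synthesis in red cells, -0.32. Slc25a37 was the one above 0, at 0.22. Ank1 counts among the 7 at -0.090, but it did not vary like Hbb. Over all animals Ank1 lay between 9.20 and 9.58, and Hbb between 9.28 and 11.67. Scores of this list ran from -0.53 in chow/high-fat animal 2 to 0.77 in chow/high-fat animal 1. Tendon markers had a positive interaction in 10 of 13, with a median of 0.11, which became -0.0081 without chow/high-fat animal 2. The members of smallest p were the tendon transcription factors Mkx (0.47) and Scx (0.37) and the matrix protein Thbs4 (0.53). Tnmd, outside the naming rule, had the lowest interaction of the 13, -0.16. Tendon scores ran from -0.59 to 0.36, the lowest again in chow/high-fat animal 2, which also had the lowest slow sarcomere score of its group, -0.72.

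Genes of muscle regeneration had a median interaction of 0.14, positive in 9 of 13. Chrna1, a subunit of the acetylcholine receptor, had 0.52 (limma adjusted p = 0.695), Ncam1, an adhesion molecule of denervated fibres, had 0.50, and Cdkn1a, a cell cycle inhibitor, had -0.65. The list's median was 0.029 without high-fat/chow animal 1. Angiogenesis genes had a median of 0.11, positive in 11 of 14. Among them Vegfb, a growth factor for vessels and for fatty acid uptake, had 10.62, 10.61, 10.52 and 10.35 in high-fat/chow and 10.64, 10.78, 11.12 and 10.86 in high-fat/high-fat. These groups did not overlap (4.12% of all genes). In the chow lineage it had 11.11, 10.79, 11.02, 10.96 and 10.94 on chow and 10.98, 10.60, 10.83, 10.90 and 10.59 on high-fat diet, where they did. The interaction of Vegfb was 0.51 (SE 0.143, limma adjusted p = 0.612). Aplnr, the apelin receptor, had -0.22, and Egln3, an oxygen sensor, had 0.15.

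Vessel wall markers had a positive interaction in 12 of 13, with a median of 0.098 and 3 at an unadjusted p under 0.05 (3.57% of all genes in that direction): Cnn1 (0.34) and, named after their values were seen, Rgs5 (0.41) and Abcc9 (0.39), all expressed by smooth muscle cells or pericytes. The median was 0.031 without high-fat/chow animal 1, 0.185 without high-fat/high-fat animal 3 and -0.179 within title code 5. This list also holds Des, which the tissue check counted among the genes that skeletal muscles share. Endothelial markers had a median of 0.060, positive in 8 of 14, with Sox17, a transcription factor of arteries, at 0.46. That median ran from 0.021 without chow/high-fat animal 5 to 0.147 without high-fat/high-fat animal 3. Leukocyte markers had a median of -0.035 (positive in 9 of 23), and fibroblast and matrix markers -0.092 (9 of 32). The leukocyte median was 0.070 without chow/chow animal 3 and -0.098 without chow/high-fat animal 3. The fibroblast median was -0.0050 without high-fat/chow animal 2 and 0.105 with the array median as a covariate. Whether the share of these cells differed was not tested.

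Transcripts of ribosomal proteins and of the proteasome had more values below than above 0, and 0 were called. In high-fat/high-fat animals 1 to 4 the ribosome scores were 0.110, -0.005, -0.094 and -0.163, and the proteasome scores 0.021, -0.006, -0.120 and -0.119. In high-fat/chow animals 1 to 4 they were -0.021, 0.032, 0.075 and 0.126 for the ribosome and 0.018, -0.004, 0.062 and 0.099 for the proteasome. The low high-fat/high-fat scores were thus those of animals 3 and 4. This was not particular to these lists. The same animals had the lower scores of their group for respiratory complex I and the antioxidant genes, but not for every list. Cytosolic ribosomal protein genes had a negative interaction in 37 of 54 (48.9% of all genes), with a median of -0.098, and 5 negative and 1 positive values had an unadjusted p under 0.05 (3.26% and 3.57% of all genes). Rpl39 had -0.51 (SE 0.184, limma adjusted p = 0.649), and further probe sets that carry its name gave -0.51 to -0.54. Of its 7 probe sets 4 hold identical values on every array, so they are 4 distinct measurements in all. Ribosomal protein genes have many near-identical copies, so single members are uncertain. Proteasome subunits were negative in 24 of 31, with a median of -0.091 and 4 negative at an unadjusted p under 0.05: Psmb7 (-0.30) and, named after their values were seen, Psma2 (-0.39), Psma5 (-0.34) and Psma7 (-0.32). Psmb7 lay between 11.80 and 11.92 in high-fat/chow and between 11.38 and 11.78 in high-fat/high-fat, without overlap (4.12% of all genes). As deposited the medians of both lists turned to 0.161 (ribosome) and 0.187 (proteasome), below the all-gene median of 0.24 there.

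**Figure D5:**
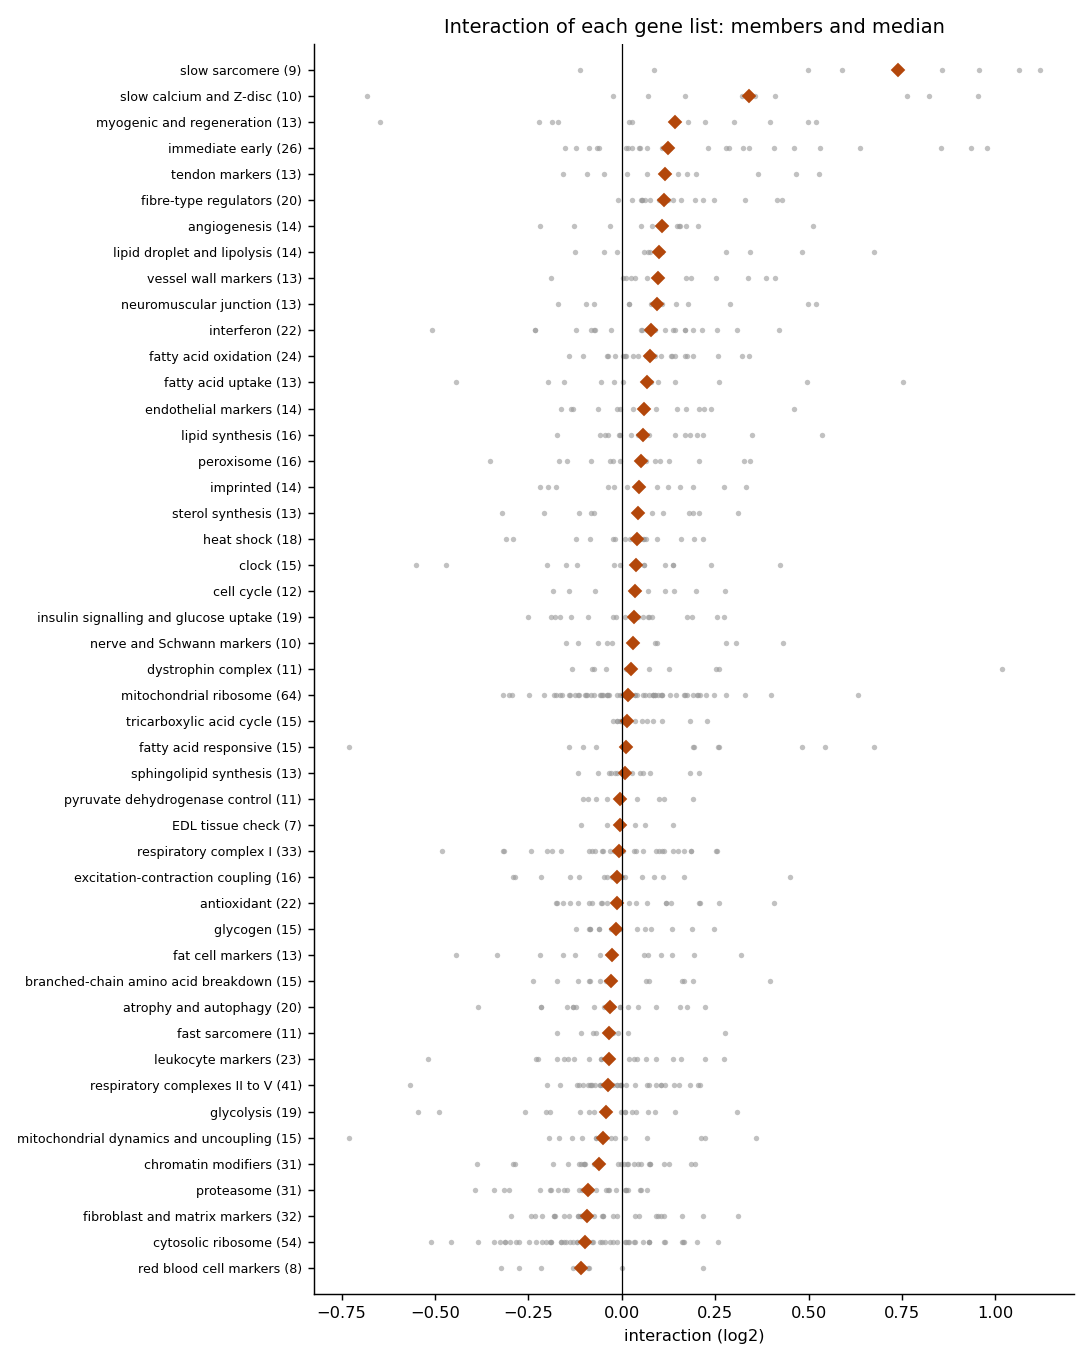
Interaction (log2) of the measured members of each of 47 gene lists (grey points, number in brackets) and their median (diamond). The slow sarcomere median, 0.74, and the slow calcium and Z-disc median, 0.34, stand farthest from 0 among the 47.

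Energy metabolism outside fat had medians near that of all genes. The median interaction was -0.0083 for respiratory complex I (positive in 15 of 33), -0.036 for complexes II to V (13 of 41), 0.013 for the tricarboxylic acid cycle (10 of 15), 0.016 for the mitochondrial ribosome (34 of 64) and -0.041 for glycolysis (8 of 19). The members of smallest p were Ndufs7 (0.25), Atp5me (-0.57), Suclg1 (0.23), Mrpl47 (0.63) and Ldha (-0.20). With single animals left out the medians ran from -0.056 to 0.047 for complex I, -0.055 to 0.0049 for complexes II to V, -0.0047 to 0.068 for the cycle, -0.022 to 0.053 for the mitochondrial ribosome and -0.061 to -0.0051 for glycolysis. Mrpl47, a protein of the mitochondrial ribosome, had own-diet differences of -0.05 and 0.58 (limma adjusted p = 0.649). Ldha, the muscle lactate dehydrogenase, had a second probe set at -0.058.

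Genes often examined in studies of inherited diet effects gave no call either. Chromatin modifiers had a median interaction of -0.061 (positive in 13 of 31), with Kat2a, a histone acetyltransferase, at -0.29 (limma adjusted p = 0.649). That median was -0.017 without chow/high-fat animal 3 and 0.044 with median centring. Imprinted genes had a median of 0.045 (9 of 14), with Grb10, an imprinted inhibitor of insulin signalling, at 0.27 (limma adjusted p = 0.687), and this median ran from 0.0095 without chow/chow animal 1 to 0.111 without chow/high-fat animal 2. Clock genes had a median of 0.037 (8 of 15), with Hlf, a clock output factor, at -0.47 (limma adjusted p = 0.649). The clock median was -0.094 without chow/chow animal 3 and -0.213 with the array median as a covariate. Stac3, a component of excitation-contraction coupling, had -0.29 (limma adjusted p = 0.647), while its list had a median of -0.012. Antioxidant genes had a median of -0.013, with Sod3, the extracellular superoxide dismutase, at 0.41 (limma adjusted p = 0.649).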

How the data were processed

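RNA of 18 EDL muscles, 200 ng each per the labels, was measured on Affymetrix arrays of whole transcripts. The deposited table holds linear intensity values of 20917 probe sets; the submitters' processing notes name PLIER and Affymetrix Expression Console, with versions and settings not given in the sources used here. Values were taken as log2(intensity + 16) and quantile-normalized with limma 3.58.1 in R 4.3.3. A symbol was given for 18197 probe sets (1 symbol each), 960 named several genes and 1760 none. The brightest probe set of each gene was kept if its mean exceeded the 25th percentile (5.28), leaving 12642 genes. The mean of each group was fitted over all 18 arrays by lmFit and tested two-sided by eBayes, with Benjamini-Hochberg adjustment at 0.05 within each of 5 comparisons. The number of arrays limits the precision. Arrays of 1 group were checked for copies (32 pairs, at most 0.0908% identical values). The fit was tested on simulated data.

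The comparison, the members and the 47 gene lists were chosen with earlier results of these data known. Genes named are the 20 of smallest p, 3 members of smallest p in each of the 8 lists farthest from the all-gene median, the member of smallest p in another list where its p is under 0.05, and a panel. Alternatives were other normalizations, offsets, filters, probe sets, variance models, the title code (read as a possible batch; the labels do not explain it), neighbouring animals, the array median as covariate, and each array left out. A fit of all probe sets with or without a symbol was added after seeing the data. Replicates are numbered in record order.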

Additional observations from a re-analysis of the deposited data

Results flagged for a closer look

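Within groups of 4 or 5 animals, 340 groups of values (76 named genes and the described list scores) were screened for an animal far from the rest, and 21 were found where chance gives about 1 in 20, or 17. These numbers are close, but the groups share animals, the scores are made partly of the named genes, and many genes were chosen by p. The comparison with chance is therefore rough.

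Among slow-fibre values, high-fat/high-fat animal 4 was low for Myh7 (9.53), Tnnt1 (8.18) and the slow sarcomere score (-1.14), and low for Wdr12 (9.60). Chow/high-fat animal 1 was high for Dpp3 (7.60) and low for Pak1 (7.51) and Rpl39 (11.27). Chow/high-fat animal 3 was low for Ucp3 (10.08), animal 4 of that group low for Ankrd2 (8.08) and animal 5 high for Or7a38c (5.81). In chow/chow, animal 1 was high for Mrpl47 (9.78), animal 2 low for Cat (11.36), animal 3 low for Ccn1 (8.25) and animal 4 low for Wars2 (7.74). In high-fat/chow, animal 1 was low for Scx (6.91) and for the fibre-type regulator score (-0.14), animal 2 high for Aplnr (7.86), and animal 4 high for Atp5me (8.13) and low for Angptl4 (6.45). In high-fat/high-fat, animal 1 was high for Scx (7.69) and animal 2 low for Scd (7.66).

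The own-diet difference of the log2 median deposited intensity differed between the lineages. The exact permutation p was 0.00952, under a null of no own-diet difference in either lineage, and the interaction was 0.26. It lay between 0.217 and 0.294 when single arrays were left out.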

How the results depend on the processing

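The interaction gave 0 called genes under 32 of 33 alternatives and 1, Sntb1, on the table as deposited, where the median of all genes moved to 0.24. Over 76 named genes, 2389 of 2419 alternative values kept their direction and stayed without a call, 29 reversed and 1 passed. As deposited, the count was also 1 for own diet in the chow lineage, 0 for grandpaternal diet at own chow and 1689 at own high-fat diet. The single call at own chow was lost (0) under cyclic loess, offsets of 1 and 64, all probe sets, the title code as a block and the array-median covariate. At own high-fat diet 1 gene was called with an offset of 1 and 9 with all probe sets. Leaving out single animals gave 0 to 0 genes for the interaction, 0 to 1 for own diet in the high-fat lineage, 0 to 2 for grandpaternal diet at own chow and 0 to 56 at own high-fat diet (56 without high-fat/high-fat animal 1, 54 without high-fat/chow animal 1). List medians as deposited were 0.393 for fibre-type regulators (0.186 with median centring), 0.374 for regeneration, 0.362 for immediate early, 0.394 for angiogenesis and 0.392 for tendon. With the covariate they were 1.37 for slow sarcomere, -0.037 for regeneration and 0.252 for angiogenesis, and without the 2 dimmest arrays -0.058 for regeneration. Within title code 5 (1 high-fat/high-fat animal, so an arm of 1, with no test) they were -0.079 for regeneration, -0.125 for immediate early, -0.093 for angiogenesis, -0.913 for red blood cells and -0.330 for tendon; within code 7 (1 animal in 3 of the groups) they were 0.073 for slow sarcomere, 0.271 for fibre-type regulators and 0.304 for regeneration. Code 9 holds no chow/high-fat animal. With single animals left out regeneration ran from 0.029 to 0.212. Reversed genes as deposited were Mybpc1 (0.055), Ank1 (0.22; 0.012 with median centring), Aplnr (0.049), Atg12 (0.089) and Slc2a4 (0.086). With the title code Ucp3 was -0.073, Angptl4 -0.052 and Cpt1b -0.018. Cpt1b was -0.027 with the covariate and -0.011 without the 2 dimmest arrays, and Ucp3 -0.0068 with neighbouring animals as a block. Leaving out single animals, Ucp3 ran from -0.239 to 0.191, Scd from -0.027 to 0.367, Cpt1b from -0.026 to 0.049, Ahsp from -0.567 to 0.019 and Angptl4 from -0.210 to 0.496. The causes were not tested. The titles share no replicate numbers between groups. Pairing animals of neighbouring numbers within a lineage (8 pairs, correlation 0.126) as a random block gave 0 called genes. Each pair joined a chow-fed and a fat-fed female, and whether neighbours are relatives is not given.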
